A study of Homo sapiens with 6 samples.

Results

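The genes described here encode subunits of NF-κB, inhibitors of the pathway and a target of it, and they were 10 of the 17064 genes in the expression table. They are NFKB1, NFKB2, REL, RELA and RELB (the 5 subunits), NFKBIA, NFKBIE, TNFAIP3 and BIRC3 (4 inhibitors and feedback regulators) and ICAM1 (an adhesion molecule). They were chosen by name from the known pathway, but with the DKO against vector results of these libraries already known, so their values in that comparison are given as a description and are not a test of anything. All 10 were among the 13123 genes that passed the filter on low counts.

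RNA was sequenced from MDA-MB-231, a human triple-negative breast cancer line, to compare cells lacking the kinases MRCKα and MRCKβ, which act downstream of CDC42 on actin and myosin. CRISPR guides against CDC42BPA (encoding MRCKα) and CDC42BPB (encoding MRCKβ) were delivered in the lentiviral vector lentiCRISPRv2, and the transduced cells were selected and used as pools without picking clones. The 6 libraries are vector 1 and vector 2 (empty vector, from separate transductions), 1 MRCKα KO, 1 MRCKβ KO, and DKO 1 and DKO 2 (both genes targeted, each with a different pair of guides). Thus all cells carry the vector, the single knockouts have no replicate, and the spread between replicates covers the transduction or the guides together with the culture.

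NF-κB is a family of dimeric transcription factors that are held inactive in the cytoplasm by IκB proteins. Signals from cytokine and innate immune receptors activate the IκB kinases, the IκB is degraded, and the freed dimers bind κB sites and switch on inflammatory, survival and adhesion genes. Among these genes are several inhibitors of the pathway and some of the subunits, which forms feedback loops, and breast cancer lines of the basal type are known for NF-κB activity without added ligand.

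The expected counts summed to between 10349898 and 10657857 reads per library, and 12911 to 13038 genes had at least 10 reads. A member had between 85 reads (TNFAIP3 in vector 1) and 1715 reads (RELA in DKO 2) in a library. The targeted genes did not lose their RNA. CDC42BPA was at 36.43 and 23.32 FPKM (fragments per transcript length and library total) in vector 1 and 2, at 29.43 and 34.94 in the MRCKα and MRCKβ single knockouts, and at 28.31 and 26.06 in DKO 1 and 2. CDC42BPB was at 30.28, 29.11, 27.29, 25.70, 23.42 and 23.47 FPKM in the same order. A small edit need not lower the RNA, so these levels check no label. The paper reports by immunoblot that the knockout of both proteins in its MDA-MB-231 pools was very efficient. The mesenchymal marker VIM was at 1532 to 2052 FPKM. Of the markers listed with it, LGALS1 was at 504 to 604, CD44 at 111 to 203 and ZEB1 at 21.6 to 24.4 FPKM. SPARC, also listed with it, was low at 0.16 to 1.22 FPKM. The keratins KRT8 and KRT18 lay between 138 and 220 FPKM, while the epithelial adhesion genes EPCAM and CDH1 reached at most 2.62 and 0.64 FPKM although the label reads epithelial. Of leukocyte and fibroblast markers, PTPRC reached 1.24, CD3E 0.06 and DCN 0.29 FPKM, and PDGFRB ranged from 1.14 to 5.9 FPKM with its highest value in vector 1. COL1A1, also listed for fibroblasts, was at 2.04 to 3.26 FPKM.

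Promoters of the members were searched for κB sites, because binding of NF-κB next to the start is the textbook route of this feedback. The table of RefSeq promoters (build GRCh38.p14) held 8 of the 10 members with 12 windows of 250 bases before a transcript start. The κB consensus of 10 bases, searched on both strands, was present in 3498 of 35116 windows of the same length (9.96%), and in 7 of the 12 windows of the members, from 6 genes. A shorter pattern, GGANNTTCC, which overlaps the consensus, was present in 3.84% of all windows and in 6 of the 12, also from 6 genes. Counted by gene, 6 of the 8 members had a match to each pattern. Of all 27305 genes with a window, 11.8% had a consensus match and 4.71% a match to the shorter pattern. A match is a run of letters and not a shown binding site, and the genes were picked as known members of the pathway.

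The windows shown are those of the 5 members with a consensus match and the highest ratios, ordered by their ratio of DKO to vector, and that of ICAM1, which was added after its values were seen because it was 1 of the 2 members with the largest ratios. Each reads 5′ to 3′ on the strand of the gene and ends at the base before the start, and capitals mark matches to either pattern on either strand.

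TNFAIP3, chr6:137867009-137867258, plus strand: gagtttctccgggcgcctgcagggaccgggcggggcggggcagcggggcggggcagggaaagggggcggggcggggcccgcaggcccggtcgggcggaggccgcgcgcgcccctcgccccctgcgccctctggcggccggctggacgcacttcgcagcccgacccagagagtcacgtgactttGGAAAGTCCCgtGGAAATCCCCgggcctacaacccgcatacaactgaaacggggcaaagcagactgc

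BIRC3, chr11:102317234-102317483, plus strand: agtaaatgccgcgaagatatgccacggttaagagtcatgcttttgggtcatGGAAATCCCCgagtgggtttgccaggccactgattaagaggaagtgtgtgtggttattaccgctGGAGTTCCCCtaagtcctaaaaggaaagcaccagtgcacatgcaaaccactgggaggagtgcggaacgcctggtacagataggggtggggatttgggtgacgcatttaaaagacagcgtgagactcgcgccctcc

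NFKB2, the third of its starts, chr10:102395455-102395704, plus strand: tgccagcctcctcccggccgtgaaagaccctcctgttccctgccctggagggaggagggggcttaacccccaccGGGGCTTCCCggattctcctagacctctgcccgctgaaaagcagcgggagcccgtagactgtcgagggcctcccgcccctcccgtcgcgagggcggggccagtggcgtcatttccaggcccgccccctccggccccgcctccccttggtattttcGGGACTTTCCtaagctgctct

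NFKBIA, chr14:35404750-35404999, minus strand: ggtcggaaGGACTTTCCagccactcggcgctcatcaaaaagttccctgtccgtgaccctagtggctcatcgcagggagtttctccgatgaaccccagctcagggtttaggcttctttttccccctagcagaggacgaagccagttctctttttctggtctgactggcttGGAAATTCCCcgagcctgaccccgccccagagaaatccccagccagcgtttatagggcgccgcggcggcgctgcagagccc

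REL, chr2:60881324-60881573, plus strand: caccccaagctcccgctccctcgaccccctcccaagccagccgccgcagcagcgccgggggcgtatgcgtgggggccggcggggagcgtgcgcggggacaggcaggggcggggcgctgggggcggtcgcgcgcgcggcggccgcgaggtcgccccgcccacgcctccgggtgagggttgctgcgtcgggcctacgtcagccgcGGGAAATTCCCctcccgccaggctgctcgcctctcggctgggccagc

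ICAM1, chr19:10270870-10271119, plus strand: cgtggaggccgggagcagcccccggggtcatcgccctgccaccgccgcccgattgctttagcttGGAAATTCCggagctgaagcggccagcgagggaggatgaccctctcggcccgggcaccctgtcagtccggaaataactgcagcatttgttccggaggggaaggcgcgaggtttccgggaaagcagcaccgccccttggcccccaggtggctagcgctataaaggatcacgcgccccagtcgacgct

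TNFAIP3 carried 2 consensus matches close together, GGGACTTTCC at 67 to 58 and GGGGATTTCC at 55 to 46 bases before the start, both read on the opposite strand. BIRC3 had the same GGGGATTTCC at 199 to 190 bases and GGGGAACTCC at 135 to 126 bases, also on the opposite strand. NFKBIA had GGGAATTTCC at 81 to 72 bases, and NFKB1, whose window is not printed, had the same letters at 49 to 40 bases on its own strand. ICAM1 had no consensus match in this window, which says only that these letters are not there, and 1 match to the shorter pattern at 186 to 178 bases. The second NFKB2 start, whose window is not printed, also had consensus matches, among them GGGAATTCCC at 107 to 98 bases and GGGGCTTTCC at 78 to 69 bases. No match to either pattern was found in the windows of the 2 RELA starts.

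In levels per transcript length, subunits were both the highest and the lowest of the members. RELA was the highest of the 10 with a mean of 55.8 FPKM over the 6 libraries, followed by NFKBIA (48.1), NFKB2 (24.6), NFKB1 (20.7), ICAM1 (18.7), NFKBIE (11), BIRC3 (9.69), RELB (8.53), TNFAIP3 (4.27) and REL (3.07). Between neighbours in this order the ranges over the 6 libraries overlapped, except that the lowest NFKBIA value (36.56 FPKM) lay above the highest NFKB2 value (34.09 FPKM).

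**Figure D1:**
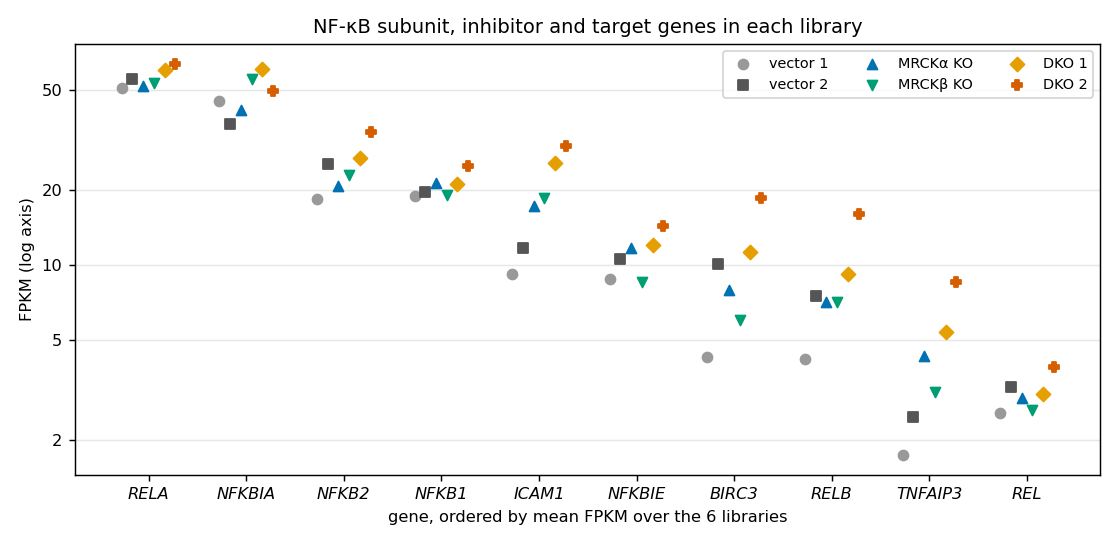
FPKM on a log axis for each of the 10 genes in each of the 6 libraries, 1 point per library, with genes ordered by mean level. For TNFAIP3 and ICAM1 all 4 knockout points lie above both vector points, and for 9 of the genes DKO 2 is the highest point, with NFKBIA as the exception.

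In DKO against vector, ICAM1 and TNFAIP3 stood highest, at 2.66 and 3.32 times the vector mean, and RELB and BIRC3 followed at 2.15 and 2.07 times. The remaining 6 members were between 1.16 and 1.39 times the vector mean. All 10 were on the higher side in DKO, which 49.3% of all tested genes were, and the median log2 fold change of the members was 0.46 beside a median of all tested genes that was 0.00 to 2 decimals. In 9 of 10 members both DKO libraries lay above both vector libraries, against 14.8% of all tested genes, with REL as the exception. Since this comparison was known when the members were chosen, nothing is read from these shares. In bulk RNA a change per cell and a change in the share of cells carrying it cannot be told apart.

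On 2 against 2 libraries, edgeR's quasi-likelihood test called none of the 13123 genes (0%) at an adjusted p of 0.05, and so 0 of the 10 members. At an unadjusted p under 0.05 it gave 179 genes higher (1.36%) and 134 lower (1.02%) in DKO, among them 6 members higher and 0 lower. DESeq2 called 4 genes (0.0305%), of which 2 were ICAM1 and TNFAIP3, while limma on log2 FPKM called 0 genes. The p-values measure only the spread between these few libraries. By the fold rule used in the study (averages of FPKM at least 2-fold apart, genes whose replicates differ by over 2-fold left out), 3 of 9 members were past 2-fold upward in DKO, namely ICAM1, RELB and TNFAIP3, against 1.02% of 12254 genes. The paper also left out poorly expressed genes, without stating a threshold. Beyond the replicate filter, only genes with a mean of 0 FPKM in a group were dropped here. BIRC3 was left out by that rule because vector 2 was 2.34 times vector 1. The count was 2, without RELB, with a pseudocount of 1 or without vector 1 or DKO 2, and 4, with BIRC3, without the replicate filter or without vector 2.

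Among the subunits, RELB differed most. Pairs of values follow the replicate numbers. RELB (Entrez gene 5971), the transcription-activating subunit of the non-canonical pathway, was at 4.23 and 7.52 FPKM in the vector pair, 7.10 and 7.10 in the MRCKα and MRCKβ single knockouts, and 9.23 and 16.01 in the DKO pair. Both DKO values were the highest, but the replicates were far apart, with vector 2 at 1.78 times vector 1 and DKO 2 at 1.73 times DKO 1. The log2 fold change was 1.08 ± 0.37 (SE, 2 against 2 libraries), and it ranged from 0.63 without DKO 2 to 1.57 without vector 2. The single knockouts fell between the vector libraries.

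NFKB2 (Entrez gene 4791), whose precursor protein retains RELB in the cytoplasm until it is processed, was at 18.31 and 25.31 FPKM in the vector pair, 20.68 and 22.83 in the MRCKα and MRCKβ single knockouts, and 26.62 and 34.09 in the DKO pair. DKO 1 exceeded vector 2 by a factor of 1.05 only, so the groups barely separated. Its log2 fold change was 0.48 ± 0.20, and 0.26 to 0.75 when a library was left out.

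The canonical subunits differed little. RELA (Entrez gene 5970), the main activating subunit, was at 50.93 and 55.37 FPKM in the vector pair, 51.90 and 53.08 in the MRCKα and MRCKβ single knockouts, and 59.83 and 63.68 in the DKO pair, a log2 fold change of 0.17 ± 0.12 (0.11 without DKO 2 to 0.23 without vector 2). NFKB1 (Entrez gene 4790), which encodes its usual DNA-binding partner, was at 18.84 and 19.56 FPKM in the vector pair, 21.17 and 18.95 in the MRCKα and MRCKβ single knockouts, and 20.97 and 24.90 in the DKO pair, a log2 fold change of 0.23 ± 0.13 (0.13 without DKO 2 to 0.33 without DKO 1). The MRCKα KO value of NFKB1 lay above DKO 1. REL (Entrez gene 5966), a subunit best known from lymphocytes, was the lowest of the family at 2.57 and 3.27 FPKM in the vector pair, 2.94 and 2.63 in the MRCKα and MRCKβ single knockouts, and 3.06 and 3.93 in the DKO pair. Its groups overlapped, and its log2 fold change of 0.23 ± 0.21 was 0.04 without DKO 2.

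Of the inhibitors, TNFAIP3 differed most. TNFAIP3 (Entrez gene 7128), a ubiquitin-editing enzyme that shuts off signaling from cytokine receptors to the IκB kinases and is itself induced by NF-κB, was at 1.74 and 2.47 FPKM in the vector pair, 4.32 and 3.11 in the MRCKα and MRCKβ single knockouts, and 5.41 and 8.56 in the DKO pair. All 4 knockout libraries lay above both vector libraries, and the lower DKO value was 2.19 times the higher vector value. DKO gave a log2 fold change of 1.73 ± 0.29, with 1.36 to 2.02 when a library was left out. The group means were 2.11 ± 0.516 FPKM in vector and 6.99 ± 2.23 FPKM in DKO (SD, n = 2 each).

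NFKBIA (Entrez gene 4792), encoding the IκB protein that ends the canonical response within its own feedback loop, was at 44.94 and 36.56 FPKM in the vector pair, 41.74 and 55.18 in the MRCKα and MRCKβ single knockouts, and 60.73 and 49.56 in the DKO pair. It was the 1 member in which replicate 1 was above replicate 2 in both groups, and the MRCKβ KO value lay between those of DKO. The log2 fold change in DKO was 0.42 ± 0.17, with 0.25 without DKO 1, 0.28 without vector 2 and up to 0.57 without vector 1.

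NFKBIE (Entrez gene 4794), a further IκB protein, was at 8.75 and 10.58 FPKM in the vector pair, 11.72 and 8.55 in the MRCKα and MRCKβ single knockouts, and 12.03 and 14.36 in the DKO pair. The MRCKα KO value lay just below DKO 1, and the MRCKβ KO value was the lowest of the 6. The log2 fold change in DKO was 0.43 ± 0.17, and 0.29 to 0.57 when a library was left out.

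BIRC3 (Entrez gene 330), a ubiquitin ligase that protects from cell death and keeps the kinase of the non-canonical pathway low, was at 4.31 and 10.07 FPKM in the vector pair, 7.93 and 6.04 in the MRCKα and MRCKβ single knockouts, and 11.25 and 18.55 in the DKO pair. The vector libraries differed from each other by more than DKO differed from vector. The log2 fold change in DKO was 1.01 ± 0.40, and it went from 0.54 without vector 1 to 1.72 without vector 2.

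ICAM1 (Entrez gene 3383), the cell surface ligand of leukocyte integrins and a classical NF-κB target, was at 9.21 and 11.66 FPKM in the vector pair, 17.12 and 18.46 in the MRCKα and MRCKβ single knockouts, and 25.62 and 29.90 in the DKO pair. The 3 kinds of sample did not overlap, with the single knockouts between vector and DKO. The group means were 10.4 ± 1.73 FPKM in vector and 27.8 ± 3.03 FPKM in DKO (SD, n = 2 each). The log2 fold change in DKO was 1.39 ± 0.17, the smallest SE among the 4 members above 2-fold, and 1.23 to 1.57 when a library was left out.

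The single knockouts can be compared with vector as values only, since each is 1 library, and all comparisons share the vector libraries. MRCKα KO lay above both vector libraries in 4 of 10 members (NFKB1, NFKBIE, TNFAIP3 and ICAM1), against 33.0% of the 12555 genes with a mean of at least 0.5 FPKM, and below both in 0. MRCKβ KO lay above both in 3 of 10 (NFKBIA, TNFAIP3 and ICAM1), against 30.5% of genes, and below both in 1, NFKBIE. The shares above both are near the background, and for those below both no share over all genes was counted. The median log2 ratio of the members to the vector mean was 0.14 in MRCKα KO and 0.03 in MRCKβ KO, beside 0.02 and 0.00 for all genes. Both depended on the vector library, with 0.30 and 0.31 against vector 1 and 0.02 and -0.07 against vector 2.

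The values of ICAM1 and TNFAIP3 were above vector in each single knockout. From the read counts, ICAM1 was 1.64 times the vector mean in MRCKα KO (exact 95% interval 1.47 to 1.84) and 1.77 times in MRCKβ KO (1.59 to 1.97). TNFAIP3 was 2.11 times the vector mean in MRCKα KO (1.73 to 2.57) and 1.53 times in MRCKβ KO (1.23 to 1.89). These intervals cover counting error only, and for comparison vector 2 was 1.27 times vector 1 in ICAM1 and 1.42 times in TNFAIP3. By the fold rule, TNFAIP3 alone of 9 members passed 2-fold in MRCKα KO (1.94% of genes passed upward) and 0 of 9 did in MRCKβ KO (1.68%). No member passed downward, against 319 of 12864 genes in MRCKα KO and 238 of 12903 in MRCKβ KO. DKO in turn was 1.62 times MRCKα KO and 1.50 times MRCKβ KO in ICAM1, and 1.62 and 2.25 times in TNFAIP3. All 4 knockout libraries exceeded both vector libraries in these 2 of the 10 members, against 6.73% of genes.

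The IκB genes gave different ratios in the 2 single knockouts, which was not tested. NFKBIA was 1.02 times the vector mean in MRCKα KO (0.931 to 1.12) and 1.35 times in MRCKβ KO (1.24 to 1.47), while NFKBIE was 1.21 times (1.05 to 1.4) and 0.886 times (0.756 to 1.04). For comparison, vector 2 was 0.814 times vector 1 in NFKBIA and 1.21 times in NFKBIE. BIRC3 was 1.1 times (0.973 to 1.23) and 0.83 times (0.729 to 0.944), both well inside the 2.34-fold gap of its vector libraries. The subunits gave ratios between 0.87 (REL in MRCKβ KO) and 1.21 (RELB in MRCKα KO), and of these 10 intervals that of NFKB1 in MRCKα KO was the one without 1 (1.1, 1.01 to 1.2).

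The replicates of a group differed in the members in 1 direction. Vector 2 was above vector 1 in 9 of 10 members (49.1% of genes) and DKO 2 above DKO 1 in 9 of 10 (52.1%), in both cases all but NFKBIA, and 31.6% of genes had both. The median log2 ratio of vector 2 to vector 1 was 0.34 over the members and that of DKO 2 to DKO 1 was 0.30, beside -0.01 and 0.01 over all genes. Between DKO and vector it was 0.46. Vector 1 was the lowest of the 6 libraries in 8 of 10 members (17.7% of genes), DKO 2 the highest in 9 of 10 (20.3%), and both DKO libraries exceeded the other 4 in 7 of 10 (7.12%). PDGFRB and the keratin KRT19 differed between the same replicates in the other direction, PDGFRB at 5.9 and 1.35 FPKM in vector and 3.15 and 1.14 in DKO, KRT19 at 60.4 and 28.9 in vector and 48.1 and 21.5 in DKO, and CD44 in the same direction at 116 and 203, then 121 and 178. Their part in the result was not tested.

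Averaged as z-scores of log2(FPKM + 0.1), the members stood at -1.11 and -0.28 in the vector pair, at -0.19 with MRCKα and -0.40 with MRCKβ knocked out, and at 0.58 and 1.41 in the DKO pair. On this scale both single knockouts lay close to vector 2, above vector 1 and below both DKO libraries. Of the 45 pairs of members 44 had a Pearson r above 0 over the 6 libraries, with a median of 0.85 and a range from -0.10 to 0.96. These coefficients describe the same 6 libraries for every pair, with vector 1 and DKO 2 at the ends, and carry no test.

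Likeness was ranked over 1292 non-member genes with a mean of at least 1 FPKM and a range of at least 2-fold over the libraries. Those most like the mean of the members were MPP7 (r = 0.996, a scaffold protein), CXCL1 (0.986), CXCL8 (0.976), IL1A (0.975) and HDAC9 (0.967, a histone deacetylase). MPP7 was at 2.08 and 2.89 FPKM in the vector pair, 2.90 and 2.84 in the MRCKα and MRCKβ single knockouts, and 3.86 and 4.96 in the DKO pair. Most like ICAM1 were CXCL2 (r = 0.989), HDAC9 (0.967) and NPIPB5 (0.961, of a multigene family whose reads may be split between copies). In both rankings the genes were picked as the highest of 1292 coefficients over 6 libraries, which carry no test. HDAC9 was at 10.99 and 12.66 FPKM in the vector pair, 16.74 and 15.44 in the MRCKα and MRCKβ single knockouts, and 21.82 and 29.22 in the DKO pair, in the order of ICAM1 except that the single knockouts were exchanged.

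The other genes of the pathway are given from lists written by role. None of them was called by edgeR in DKO against vector. Of 9 other IκB proteins and IκB kinases, 6 were higher and 3 lower in DKO, 0 had an unadjusted p under 0.05, and the median log2 fold change was 0.02. The kinases CHUK and IKBKB and their regulatory partner IKBKG were at 0.00 ± 0.14, -0.25 ± 0.14 and -0.33 ± 0.18. The kinase TBK1 was at 0.01 ± 0.15, while IKBKE, an inducible relative, was at 0.42 ± 0.18. Among IκB proteins NFKBIB was at 0.33 ± 0.24, and of the nuclear ones NFKBIZ was at 0.56 ± 0.26, NFKBID at 0.04 ± 0.29 and BCL3 at 0.02 ± 0.20. Both DKO libraries lay above both vector libraries in 2 of the 9, IKBKE and NFKBIZ (14.8% of all tested genes), and below both in 2, IKBKB and IKBKG (14.2%). IKBKE was at 4.01 and 4.03 FPKM in vector and 5.23 and 5.62 in DKO, and IKBKB at 9.73 and 10.36 in vector and 8.61 and 7.58 in DKO.

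Upstream, of 33 receptors, adaptors and kinases 18 were higher and 15 lower, with a median log2 fold change of 0.01, and 2 higher and 1 lower had an unadjusted p under 0.05, against 1.36% and 1.02% of all tested genes. TRAF1, an adaptor that is itself an NF-κB target, was at 3.04 and 3.98 FPKM in the vector pair, 3.25 and 3.95 in the MRCKα and MRCKβ single knockouts, and 5.40 and 7.74 in the DKO pair (log2 fold change 0.88 ± 0.24). IRAK2, a kinase of the interleukin-1 and Toll-like receptor pathway, had a log2 fold change of 0.48 ± 0.20. TLR3, the receptor for double-stranded RNA, was at 5.16 and 6.56 FPKM in vector and between 3.01 and 3.81 in all 4 knockout libraries (log2 fold change in DKO -0.88 ± 0.22). Of 13 other negative regulators 8 were higher and 5 lower, with a median of 0.02 and 0 at an unadjusted p under 0.05. The extremes were PDLIM2 at -0.45 ± 0.42, which targets RELA for degradation, and the RNA-cleaving ZC3H12A at 0.44 ± 0.29.

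Among other direct targets, of 31 listed genes 24 were tested, 18 were higher and 6 lower in DKO, 10 higher and 1 lower (IRF1, named after its value was seen) had an unadjusted p under 0.05, and the median log2 fold change was 0.39. Over all tested genes 1.36% were higher and 1.02% lower at that p. In 13 both DKO libraries lay above both vector libraries and in 2 below, against 14.8% and 14.2% of all tested genes. As the list was written with results of these data known, these counts are a description. The remaining 7 had too few reads, except SELE, which was not among the 17064 genes with expression values.

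The neutrophil-attracting chemokine CXCL8 was at 7.31 and 17.31 FPKM in the vector pair, 28.52 and 19.61 in the MRCKα and MRCKβ single knockouts, and 36.45 and 114.61 in the DKO pair, a log2 fold change of 2.59 ± 0.61. Its relative CXCL2 was at 0.98 and 2.06 FPKM in the vector pair, 3.12 and 3.38 in the MRCKα and MRCKβ single knockouts, and 6.11 and 7.95 in the DKO pair, at 2.18 ± 0.43. In both chemokines all 4 knockout libraries lay above both vector libraries, as in ICAM1 and TNFAIP3, and DKO 2 was the highest. IER3, an early response gene and the most abundant of those named, was at 449.08 and 371.69 FPKM in the vector pair, 394.79 and 543.35 in the MRCKα and MRCKβ single knockouts, and 599.68 and 620.48 in the DKO pair, at 0.55 ± 0.14. Like NFKBIA, it was higher in MRCKβ KO than in MRCKα KO and higher in vector 1 than in vector 2. LTB, a ligand of the non-canonical pathway, rested on 1 read in each vector library, 7 and 6 in the MRCKα and MRCKβ single knockouts and 13 in each DKO library, a ratio of DKO to vector of 13.0 with an exact 95% counting interval from 3.26 to 113.0.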

How the data were processed

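RNA was measured in 6 libraries of MDA-MB-231 cells, 2 vector, 1 MRCKα KO, 1 MRCKβ KO and 2 DKO, grouped by the labels alone. Libraries were prepared and sequenced at BGI as single-end reads of 50 bases. The submitters' processing notes name HISAT, Bowtie2, RSEM and the build GRCh38.p11, without roles or versions. Expected counts, as deposited, are not normalized and need not be whole numbers, and 61.0% to 61.8% of a library's values were. FPKM values were computed for the authors by BGI from transcript length and library total. All sample columns were used.

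Expected counts were rounded, filtered by filterByExpr and normalized by TMM, and DKO was tested against vector with edgeR 4.0.16 (quasi-likelihood test, Benjamini-Hochberg adjustment over 13123 genes, threshold 0.05). The alternatives were DESeq2 1.42.0, limma 3.58.1 on log2 FPKM with pseudocounts of 0.1 and 1, other normalizations and filters, a fit of all 6 libraries, a replicate block, and each replicate left out. Single knockouts were compared by FPKM ratio and exact intervals on rounded reads scaled to library totals.

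The members, lists and tests were chosen with earlier results of these data known. All members and all IκB and kinase genes were named. Of the other lists up to 4 genes by unadjusted p under 0.05 were named, or else the 2 with the largest change. Markers of other cell types were listed by class. For a gene with 0 reads, an expected count of up to 3 is not excluded. Intervals express counting error alone, as no molecular identifiers were used.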

Additional observations from a re-analysis of the deposited data

How the results depend on the processing

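The log2 fold changes of the 10 members in DKO kept their sign in 130 of 130 values from 13 alternative fits. These fits reuse the same libraries, and the members were chosen with this comparison known. The count therefore describes the processing only, and no support is drawn from it. Of 289 alternative values 271 were classed as unchanged, meaning the same direction and call or, for counts, within 1.5 times. The DKO median of the members was so classed if it kept its sign and moved by less than 0.578, the replicate spread. That limit is larger than the median itself, 0.46. Many counts were 0 in both fits and most member values were uncalled in both, so the total does not measure robustness. Among the 271, members past 2-fold in DKO, 3 in the main comparison, were 2 to 4. The number of genes called in DKO against vector, 0 with edgeR, was 4 with DESeq2, 5 with a replicate block, and 0 to 5 when a library was left out (1 without vector 1, 5 without DKO 1). Members called were 2 with DESeq2 and 2 with the block, TNFAIP3 (log2 fold change 1.73 and 1.72) and ICAM1 (1.39 in both), which is 1 for the list of inhibitors in each. Other direct targets called were 2 with the block and 0 to 1 leaving out a library (1 without DKO 1). Members past 2-fold in MRCKα KO, 1 in the main comparison, were 0 with a pseudocount of 1 and 0 to 1 against a single vector library (0 without vector 1). In MRCKβ KO they were 0 to 1 (1 without vector 2), and the median log2 ratio of the members ranged from -0.07 (without vector 1, reversed) to 0.31. The cause of these changes was not tested beyond the construction of each alternative.

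The replicate numbers name separate transductions or guides, and no label ties number 1 or 2 across groups. Over the tested genes the differences of replicate 1 and 2 in vector and in DKO correlated at r = 0.33. With only 2 pairs and no such label, the numbers were not treated as a pairing. With the replicate block 397 genes were higher and 399 lower at an unadjusted p under 0.05, against 179 and 134 without it. A member had between 85 and 1715 reads in a library, which limits the precision of its value.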
